A study of Mus musculus with 12 samples.

Results

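The matrix metalloproteases (MMPs), the ADAM and ADAMTS proteases, the ADAMTS-like proteins and the tissue inhibitors of metalloproteases (TIMPs) were described in mouse hearts of 4 genotypes. The genes were chosen by name: a symbol beginning with Mmp, Timp or Adam and a digit, or with Adamts, and a mean of at least 10 reads over the 12 libraries. Of 17379 genes in the table, 65 carried such a name and 49 met the minimum. These were 13 MMPs, 4 TIMPs, 12 ADAMs, 15 ADAMTS genes and 5 ADAMTS-like genes. The other 16 had between 0 and 24 reads in every library and are outside the set. Adam19 was singled out with its result in HRC variant hearts known, so its values in that comparison are a description.

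Poly(A)-selected RNA from hearts of mice aged 6 months was sequenced, with 3 libraries in each of 4 groups. Compound mice (HRCS96A Het+MYBPC3Δ25bp Hom) were heterozygous for the S96A variant of HRC, which encodes a protein that binds calcium in the sarcoplasmic reticulum, and homozygous for a 25 bp deletion in MYBPC3, which encodes cardiac myosin-binding protein C. HRC variant mice (HRCS96A) were heterozygous for S96A alone, MYBPC3 deletion mice (MYBPC3Δ25bp) were homozygous for the deletion alone, and nontransgenic mice (C57BL/WT) carried neither. All groups are labelled C57BL, and the labels name the heart with no chamber, no transgene promoter and no number of founder lines. All compound and HRC variant mice were female, whereas the MYBPC3 deletion and nontransgenic groups each held 2 males and, as replicate 3, 1 female. The study compared each altered genotype with nontransgenic hearts, and its title concerns the compound state. Its deposited values also compare compound hearts with each single genotype. The labels number the replicates without saying that each is its own mouse, so p-values measure the spread between libraries.

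MMPs and ADAMTS enzymes are zinc proteases that cut collagen, proteoglycans and other matrix proteins, while membrane-bound ADAMs cut growth factors, cytokines and receptors from the cell surface. TIMPs bind the active site and block it, and the ADAMTS-like proteins share the matrix-binding parts of ADAMTS enzymes but lack a protease domain. In the heart, fibroblasts, endothelium, muscle and inflammatory cells each make some of these proteins, and the balance of proteases and inhibitors is known for its part in matrix turnover and fibrosis.

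The catalytic site shows how the family divides. A search of the longest reading frame of each gene in GENCODE M21 transcripts (GRCm38) looked for codons of the zinc-binding pattern, 3 histidines spaced around 1 glutamate, in stretches of 33 bases. It was found in all 13 MMPs, in all 15 ADAMTS genes and in 9 of 12 ADAMs. No match lay in the 4 TIMPs, in the 5 ADAMTS-like genes, or in Adam11, Adam22 and Adam23. Below, the stretch is given for Adam19, for the ectodomain sheddase Adam17, for the most abundant MMP, and for the 2 members with the largest fitted difference between compound and nontransgenic hearts, with the histidine and glutamate codons in capitals.
Adam19: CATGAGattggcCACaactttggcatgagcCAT
Adam17: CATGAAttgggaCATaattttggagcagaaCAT
Mmp15: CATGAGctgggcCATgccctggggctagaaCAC
Mmp3: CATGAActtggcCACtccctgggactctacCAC
Adamts8: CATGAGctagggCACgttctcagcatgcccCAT

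Promoters are shown for Adam19, singled out with its HRC variant result known, and for Mmp3 and Mmp13. The last 2 are neighbours on chromosome 9 whose fitted differences in compound hearts had opposite signs. Each window is 300 bases of RefSeq sequence (GRCm38.p6, plus strand), from 250 bases before the annotated start to 50 after it. RefSeq has 3 such windows for Adam19. The 1 shown was picked because it alone holds a motif searched for, and it lies downstream of the window at the start of the gene, chr11:46054252-46054551. Mmp3 and Mmp13 have 1 window each. The windows shown lie at chr11:46055734-46056033 for Adam19, chr9:7445572-7445871 for Mmp3 and chr9:7272264-7272563 for Mmp13. Capitals mark 2 motifs searched on both strands, the AP-1 motif TGANTCA, which reads the same on either strand, and TATAAA.
Adam19 promoter: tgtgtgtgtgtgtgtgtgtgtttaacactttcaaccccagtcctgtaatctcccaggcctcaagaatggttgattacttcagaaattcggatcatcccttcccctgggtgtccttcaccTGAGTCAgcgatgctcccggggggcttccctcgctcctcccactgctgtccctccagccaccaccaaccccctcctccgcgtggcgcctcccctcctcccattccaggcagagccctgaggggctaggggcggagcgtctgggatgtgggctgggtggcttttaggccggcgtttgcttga
Mmp3 promoter: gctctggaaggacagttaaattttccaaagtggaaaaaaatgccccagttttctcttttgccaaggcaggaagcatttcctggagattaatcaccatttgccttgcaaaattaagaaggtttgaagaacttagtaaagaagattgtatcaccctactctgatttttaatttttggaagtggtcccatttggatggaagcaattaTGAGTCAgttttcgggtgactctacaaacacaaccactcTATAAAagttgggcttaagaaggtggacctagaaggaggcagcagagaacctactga
Mmp13 promoter: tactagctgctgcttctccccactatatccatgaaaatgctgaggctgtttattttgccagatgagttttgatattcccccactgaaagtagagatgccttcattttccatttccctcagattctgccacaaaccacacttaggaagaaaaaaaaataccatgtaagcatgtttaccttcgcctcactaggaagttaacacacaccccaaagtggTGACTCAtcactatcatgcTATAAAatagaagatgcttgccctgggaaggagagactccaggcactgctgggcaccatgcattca
The Adam19 window shown holds TGANTCA at position -131 from the start and no TATAAA. In Mmp3 the motifs begin at -46 and -7, and in Mmp13 at -35 and -16. Windows were found for 32 of the 49 genes, 36 windows in all. TGANTCA was in 11.1% of them, those of Adam19, Mmp12, Mmp13 and Mmp3, against 7.81% of all 32851 windows in the table. TATAAA was in 13.9% of the members' windows against 13.6% of all. Both motifs together were in 8.33% of members' windows, those of Mmp12, Mmp13 and Mmp3, and in 1.54% of all. A match says only that the letters are present.

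Library totals ran from 15615189 to 20581196 reads. Levels are given as CPM (reads scaled to a common library size, with TMM factors) when 1 gene is compared between hearts, and as the authors' TPM, which divides by transcript length, when genes are compared with each other. Hrc had 1156 to 1229 CPM in compound hearts, 956 to 1330 CPM in HRC variant hearts, 974 to 1199 CPM in MYBPC3 deletion hearts and 939 to 1375 CPM in nontransgenic hearts; a point variant need not alter that level. Mybpc3 had 3532 to 3923 CPM in compound hearts, 2897 to 3848 CPM in HRC variant hearts, 2464 to 2918 CPM in MYBPC3 deletion hearts and 3521 to 4885 CPM in nontransgenic hearts. Markers of heart muscle (Myh6, Tnnt2, Tnni3, Actn2, Ryr2) were present in every library and summed to between 37347 and 55643 CPM. Marker sums of other tissue differed between the libraries. The 5 atrial muscle markers (Nppa, Myl7, Myl4, Sln, Bmp10) summed to 131 to 419 CPM in compound hearts, to 8377, 2758 and 196 CPM in HRC variant hearts, to 3330 to 6034 CPM in MYBPC3 deletion hearts and to 3418 to 8477 CPM in nontransgenic hearts, with Bmp10 at 0 in some libraries. The 4 cartilage and valve markers (Acan, Comp, Sox9, Cilp2) summed to 6.15 to 12.8 CPM in compound hearts, 102, 33.6 and 8.27 CPM in HRC variant hearts, 30.4 to 57.5 CPM in MYBPC3 deletion hearts and 40.1 to 65.3 CPM in nontransgenic hearts, with Acan at 0 in some. In such bulk samples, fewer cells of a type and less RNA per cell cannot be told apart.

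In nontransgenic hearts 2 inhibitors headed the members per transcript length. Timp3, the inhibitor that binds to matrix, stood first at 176 ± 59.4 TPM (SD, n = 3), followed by Timp2 at 126 ± 40.0 TPM. The next were Adamtsl5 at 91.6 ± 22.8 TPM, the membrane-type protease gene Mmp15 at 77.5 ± 13.0 TPM, and Adam15 at 75.6 ± 2.94 TPM. Timp4, the inhibitor best known from heart muscle, came sixth at 60.3 ± 6.59 TPM. The gelatinase gene Mmp2 came seventh at 53.2 ± 5.57 TPM, Timp1 stood at rank 20 with 10.2 ± 2.06 TPM, and Adam19 at rank 22 with 6.99 TPM. Neighbours in this order mostly overlapped: Timp3 and Timp2 lay within their SDs of each other, as did Adamtsl5, Mmp15 and Adam15, and likewise Timp4, Mmp2 and Adamtsl4. Lowest was Mmp16, another membrane-type protease gene, at 0.227 ± 0.184 TPM.

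**Figure D1:**
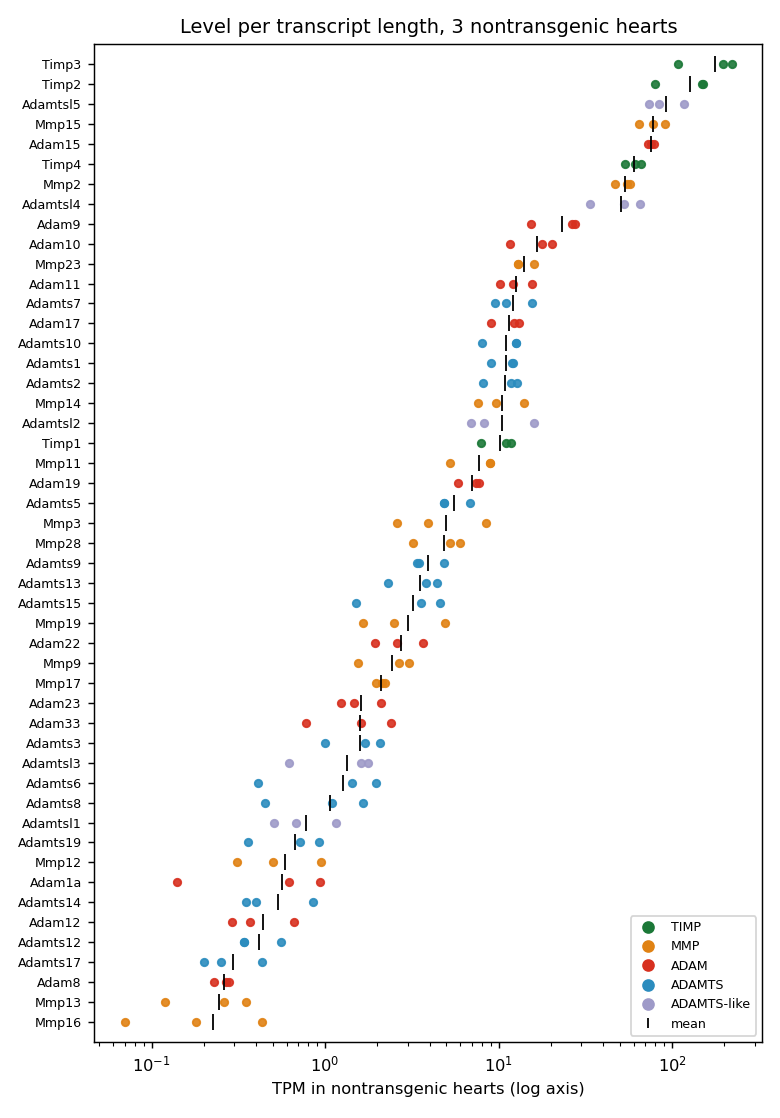
TPM (log axis) of the 49 genes in the 3 nontransgenic hearts, 1 point a heart, coloured by family, with the mean as a vertical tick. Timp3 at 176 TPM and Timp2 at 126 TPM head the order, and Mmp16 at 0.227 TPM ends it.

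By family, the 4 TIMPs summed to 265, 211 and 273 TPM in compound hearts, to 415, 289 and 207 TPM in HRC variant hearts, to 330.2, 267 and 406 TPM in MYBPC3 deletion hearts, and to 258, 413 and 447 TPM in nontransgenic hearts. The 13 MMPs together averaged 186 ± 9.32 TPM in compound hearts, 199.9 ± 31.7 TPM in HRC variant hearts, 173 ± 25.3 TPM in MYBPC3 deletion hearts and 181 ± 27.2 TPM in nontransgenic hearts (SD, n = 3 each). The groups overlap in both sums. No test was made of a sum over members.

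Adam19, a membrane-bound protease known for its part in forming the endocardial cushions and valves of the mouse heart, had its highest values in HRC variant hearts. Adam19 had 33.3, 31.2 and 28.1 CPM in compound hearts, 45.4, 74.7 and 57.9 CPM in HRC variant hearts, 27.2, 36.1 and 19.8 CPM in MYBPC3 deletion hearts, and 26.0, 25.5 and 27.4 CPM in nontransgenic hearts. All 3 HRC variant hearts lay above the other 9, and the gap between the lowest of them, 45.4 CPM, and the highest of the others, 36.1 CPM in MYBPC3 deletion replicate 2, was smaller than the range within the HRC variant group. Compound hearts, which carry the same HRC allele, lay just above the nontransgenic ones without overlap. The means were 30.9 ± 2.65 CPM in compound, 59.3 ± 14.7 CPM in HRC variant, 27.7 ± 8.15 CPM in MYBPC3 deletion and 26.3 ± 0.962 CPM in nontransgenic hearts (SD, n = 3 each).

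**Figure D2:**
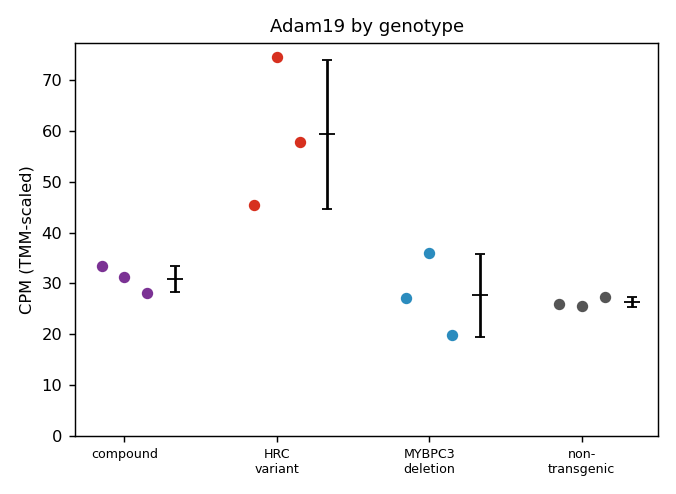
Adam19 CPM in each heart by genotype, with the mean ± SD of 3 hearts beside the points. The HRC variant hearts, at 45.4 to 74.7 CPM, lie above all others, which reach 36.1 CPM.

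Differences were fitted over all 13849 tested genes with edgeR's quasi-likelihood test, with genotype and sex as terms, and are given on the log2 scale with their SE. Because of the sex term, a fitted difference between an all-female group and nontransgenic hearts leans on the single female of that group and of the MYBPC3 deletion group, and it can differ from the ratio of group means. For Adam19 the fitted difference between HRC variant and nontransgenic hearts was 1.35 ± 0.24, a 2.55-fold higher level. Its unadjusted p of 9.7e-05 was the smallest of any member in any comparison, but the adjusted p was 0.224 and the gene was not called. Without the sex term the difference was 1.17. Leaving out HRC variant replicate 1, the lowest of its group, gave 1.52 and an adjusted p of 0.0430 in edgeR. DESeq2 on the same counts and terms gave 1.35 with an adjusted p of 0.00103, and over the 25 alternatives the adjusted p ran from 0.00103 to 1.00. The authors' deposited table gives a log2 value of 1.17 with a q of 0.000285 for the same pair. That log2 value is at the level of the fit without the sex term.

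The difference between compound and HRC variant hearts, which were all female, was -0.94 ± 0.20 (SE; adjusted p 0.321), or 0.52-fold. DESeq2 gave -0.94 with an adjusted p of 0.00871 (0.00871 to 1.0 over the 25 alternatives), and the authors' deposited table gives -0.94 with a q of 0.00202. Between compound and nontransgenic hearts Adam19 differed by 0.41 ± 0.24 (SE; adjusted p 0.847), with 0.23 without the sex term, 0.18 without MYBPC3 deletion replicate 3 and 0.95 without nontransgenic replicate 3. Between compound and MYBPC3 deletion hearts it differed by 0.36 ± 0.25 (SE; adjusted p 0.93). MYBPC3 deletion and nontransgenic hearts differed by 0.04 ± 0.20, within the spread of the single hearts. The interaction, the compound difference less the sum of both single differences, was -0.99 ± 0.28 (SE; adjusted p 0.508). In the HRC variant hearts, whose atrial marker sums were 8377, 2758 and 196 CPM, Adam19 was at 45.4, 74.7 and 57.9 CPM, and the part of atrial tissue in its difference was not tested beyond a covariate. The HRC variant difference with the atrial level as that covariate was 1.28 with an adjusted p of 0.699. GENCODE places Mir8100 on the same strand within the gene (GRCm38.p6 chromosome 11, 46054502 to 46147347) and Gm16033 and Gm16034 on the opposite strand. No source used here says whether the counting used strand, so reads of these transcripts cannot be told from those of Adam19.

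The inhibitors Timp3 and Timp4 had lower fitted levels in the 3 altered genotypes than in nontransgenic hearts. Timp3 had 300.1, 247 and 329.7 CPM in compound hearts, 483, 310.4 and 243 CPM in HRC variant hearts, 418, 387 and 494 CPM in MYBPC3 deletion hearts, and 381, 516 and 588 CPM in nontransgenic hearts. Every compound heart lay below every nontransgenic heart, whereas the HRC variant and MYBPC3 deletion groups overlapped nontransgenic hearts. The fitted difference from nontransgenic hearts was -0.98 ± 0.26 (SE; adjusted p 0.574) in compound hearts, -0.73 ± 0.26 in HRC variant hearts and -0.19 ± 0.22 in MYBPC3 deletion hearts. Timp4 had 33.9, 18.8 and 35.7 CPM in compound hearts, 25.8, 29.1 and 18.7 CPM in HRC variant hearts, 33.2, 40.0 and 30.8 CPM in MYBPC3 deletion hearts, and 63.1, 41.0 and 51.9 CPM in nontransgenic hearts. All 9 altered hearts lay below the lowest nontransgenic heart. The fitted differences were -0.74 ± 0.29 in compound hearts, -1.0 ± 0.29 (SE; adjusted p 0.605) in HRC variant hearts and -0.59 ± 0.25 in MYBPC3 deletion hearts. These comparisons share the nontransgenic hearts, and no adjusted p passed 0.05 in edgeR. The authors' deposited DESeq2 q in compound hearts was 0.00233 for Timp3 and 0.0447 for Timp4. In HRC variant hearts it was 0.0109 for Timp4 and above 0.05 for Timp3. For MYBPC3 deletion hearts it was above 0.05 for both. With the atrial level as a covariate, the compound difference of Timp3 was -0.25.

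Timp2, which also takes part in activating pro-MMP2 on the cell surface, and Timp1, the inducible inhibitor, were lowest in compound hearts and in parts of the HRC variant group. Timp2 had 217, 199 and 206 CPM in compound hearts, 410.3, 230.3 and 200.5 CPM in HRC variant hearts, 301, 264 and 317 CPM in MYBPC3 deletion hearts, and 217, 306 and 302 CPM in nontransgenic hearts. Timp1 had 2.10, 2.53 and 1.79 CPM in compound hearts, 10.2, 2.51 and 1.61 CPM in HRC variant hearts, 7.26, 7.36 and 4.62 CPM in MYBPC3 deletion hearts, and 4.94, 5.44 and 5.21 CPM in nontransgenic hearts. HRC variant replicate 1 was the highest heart of all for both, while replicates 2 and 3 lay near the compound hearts in Timp1. For Timp1, the compound hearts lay below every MYBPC3 deletion and nontransgenic heart. The fitted difference from nontransgenic hearts was -1.08 ± 0.63 (SE; adjusted p 0.847) for Timp1 and -0.53 ± 0.27 (SE; adjusted p 0.817) for Timp2. The 5 fibroblast markers summed to 1025 to 1086 CPM in compound hearts, to 1958, 1244 and 1028 CPM in HRC variant hearts, to 1474 to 1635 CPM in MYBPC3 deletion hearts and to 1256 to 1407 CPM in nontransgenic hearts, and their part in these values was not tested. In the annotation, Timp1, Timp3 and Timp4 lie inside Syn1, Syn3 and Syn2 on the opposite strand. These averaged 1.80, 0.951 and 5.57 CPM over the 12 libraries, beside 4.63, 392 and 35.2 CPM for the TIMPs, so Timp1 is the inhibitor whose reads are least certain.

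Among the gelatinases, which cut denatured collagen, Mmp2 was abundant, and Mmp9, made mainly by inflammatory cells, was scarce. Mmp2 had 91.4, 92.8 and 88.2 CPM in compound hearts, 154, 95.5 and 94.8 CPM in HRC variant hearts, 107, 118 and 122 CPM in MYBPC3 deletion hearts, and 107, 98.4 and 95.2 CPM in nontransgenic hearts. Mmp9 had 5.36, 5.44 and 1.68 CPM in compound hearts, 11.9, 7.48 and 5.60 CPM in HRC variant hearts, 5.37, 7.55 and 1.28 CPM in MYBPC3 deletion hearts, and 6.31, 5.39 and 2.78 CPM in nontransgenic hearts. HRC variant replicate 1 again had the highest value of both, and in Mmp9 all 3 HRC variant hearts lay above the compound hearts. Mmp9 in HRC variant hearts had a fitted difference of 1.95 ± 0.54 (SE; adjusted p 0.605) from nontransgenic hearts, although those groups overlapped, and of 0.79 without the sex term. The single females, nontransgenic replicate 3 at 2.78 CPM and MYBPC3 deletion replicate 3 at 1.28 CPM, were the lowest of their groups. Compound and HRC variant hearts differed by -1.0 ± 0.42 (SE; adjusted p 0.755) in Mmp9. For Mmp2 the compound differences were -0.35 ± 0.20 from MYBPC3 deletion hearts and -0.15 ± 0.21 from nontransgenic hearts. Neutrophil markers summed to 2.60 to 3.82 CPM in compound hearts, 2.93 to 6.38 in HRC variant hearts, 2.92 to 4.80 in MYBPC3 deletion hearts and 1.22 to 4.67 in nontransgenic hearts, and their part in Mmp9 was not tested.

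Mmp3, a stromelysin that cuts proteoglycans and activates other MMPs, had the second largest fitted difference of the members in compound hearts. Mmp3 had 0.719, 1.01 and 0.783 CPM in compound hearts, 11.3, 2.56 and 0.888 CPM in HRC variant hearts, 5.24, 5.90 and 2.55 CPM in MYBPC3 deletion hearts, and 3.45, 3.85 and 8.38 CPM in nontransgenic hearts. All 3 compound hearts and HRC variant replicate 3 were at about 1 CPM or less, below the other 8 hearts, and HRC variant replicate 1 was the highest. The fitted difference of compound hearts was -2.74 ± 0.90 (SE; adjusted p 0.662) from nontransgenic, -2.60 ± 1.02 (SE; adjusted p 0.862) from MYBPC3 deletion and -2.55 ± 0.83 (SE; adjusted p 0.667) from HRC variant hearts. With the atrial level as a covariate, the difference from nontransgenic hearts was -0.52. A fit of the compound and nontransgenic hearts alone gave -3.31 with an adjusted p of 0.0192, which passed 0.05, and over the 25 alternatives it ran from 0.0192 to 1.0. The difference from nontransgenic hearts ran from -3.31 without MYBPC3 deletion replicate 3 to -0.98 without nontransgenic replicate 3. That from MYBPC3 deletion hearts ran from -3.92 to -1.59 without the same libraries, and that from HRC variant hearts from -3.02 without HRC variant replicate 3 to -1.05 without HRC variant replicate 1. Mmp13, a collagenase gene 162489 bases from Mmp3 on chromosome 9, had only 1.55, 1.29 and 0.503 CPM in compound hearts and 0.238, 0.514 and 0.390 CPM in nontransgenic hearts, with an overlap of 1 heart on either side, and the fitted difference was 1.78 ± 0.80 (SE; adjusted p 0.769). Mmp11 overlaps the abundant gene Chchd10 on the opposite strand (1796 CPM over the 12 libraries against 9.76 CPM for Mmp11), so its counts are uncertain.

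The membrane-type proteases sit on the cell surface, and Mmp14 activates Mmp2 there. Mmp14 had 24.9, 26.2 and 16.0 CPM in compound hearts, 26.2, 25.7 and 19.7 CPM in HRC variant hearts, 26.2, 37.9 and 17.5 CPM in MYBPC3 deletion hearts, and 21.7, 29.8 and 20.7 CPM in nontransgenic hearts. The 4 groups overlapped, and the fitted differences from nontransgenic hearts lay between 0.13 and 0.38. Mmp15, the most abundant MMP, had its lowest values in MYBPC3 deletion hearts. Mmp15 had 239, 217 and 241 CPM in compound hearts, 198, 204 and 211 CPM in HRC variant hearts, 158, 139 and 185 CPM in MYBPC3 deletion hearts, and 209, 187 and 222 CPM in nontransgenic hearts. Every MYBPC3 deletion heart lay below every other heart. The difference from nontransgenic hearts was -0.37 ± 0.11 (SE; adjusted p 0.434), a 0.776-fold level. In compound hearts, which carry the same deletion, Mmp15 was at 232 ± 13.6 CPM, beside 206 ± 17.3 CPM in nontransgenic hearts. It was above MYBPC3 deletion hearts by 0.38 ± 0.14 (SE; adjusted p 0.862) and 0.01 ± 0.14 from nontransgenic hearts. Without the sex term the difference from MYBPC3 deletion hearts was 0.53, and the authors' deposited log2 value against nontransgenic hearts is 0.18. The interaction was 0.55 ± 0.16 (SE; adjusted p 0.508) in edgeR, and DESeq2 called it at 0.57 with an adjusted p of 0.0321 (0.0321 to 1.00 over the alternatives). Mmp16 and Mmp17 stayed under 10 CPM in every heart.

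Mmp19 was lowest in compound hearts, and Mmp28 was highest in nontransgenic hearts; both encode secreted MMPs. Mmp19 had 2.43, 2.36 and 2.68 CPM in compound hearts, 7.22, 4.24 and 4.83 CPM in HRC variant hearts, 5.37, 4.88 and 4.57 CPM in MYBPC3 deletion hearts, and 4.17, 8.99 and 4.68 CPM in nontransgenic hearts. Mmp28 had 8.79, 5.22 and 8.33 CPM in compound hearts, 9.30, 6.96 and 4.49 CPM in HRC variant hearts, 6.32, 5.39 and 7.87 CPM in MYBPC3 deletion hearts, and 8.46, 10.2 and 11.8 CPM in nontransgenic hearts. Compound hearts held the lowest 3 values of Mmp19, without overlap with any other group. Their fitted difference was -1.02 ± 0.37 (SE; adjusted p 0.672) from nontransgenic hearts and -1.12 ± 0.31 (SE; adjusted p 0.607) from HRC variant hearts. Mmp19 overlaps Tmem198b on the opposite strand, which averaged 12.6 CPM against 4.70 CPM for Mmp19. For Mmp28, the difference of MYBPC3 deletion hearts from nontransgenic hearts was -0.64 ± 0.27 (SE; adjusted p 0.579) with no overlap. In compound hearts it was -0.69 ± 0.32, or 0.13 with the atrial level as a covariate.

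The general sheddases Adam10 and Adam17, which release Notch, TNF and EGF-family ligands, overlapped between all groups. Adam10 had 52.4, 50.7 and 54.9 CPM in compound hearts, 46.6, 54.6 and 46.2 CPM in HRC variant hearts, 45.3, 46.4 and 60.5 CPM in MYBPC3 deletion hearts, and 40.3, 52.7 and 46.2 CPM in nontransgenic hearts. Adam17 had 31.5, 29.9 and 39.6 CPM in compound hearts, 23.3, 37.5 and 35.2 CPM in HRC variant hearts, 23.8, 19.0 and 30.6 CPM in MYBPC3 deletion hearts, and 30.3, 32.6 and 31.1 CPM in nontransgenic hearts. The 3 lowest hearts for Adam17 were MYBPC3 deletion replicates 1 and 2 and HRC variant replicate 1. No fitted difference of Adam10 exceeded 0.12 in size in a pair of groups, with SEs of 0.13 to 0.17. For Adam17 the largest was -0.38 ± 0.19 (SE; adjusted p 0.647) in MYBPC3 deletion against nontransgenic hearts. The ADAMs highest by CPM were Adam15 at 104 to 157 CPM, Adam9 at 37.2 to 72.1 CPM and Adam10 at 40.3 to 60.5 CPM over the 12 hearts. Adam11, Adam22 and Adam23, which lack the zinc pattern and are known from cell adhesion, ran from 3.50 to 44.6 CPM, and none had an unadjusted p under 0.05 in any comparison.

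Among the ADAMTS enzymes that cut aggrecan and versican, Adamts1 and Adamts5 varied less between hearts than Adamts8. Adamts1 had 26.6, 22.1 and 20.2 CPM in compound hearts, 26.1, 21.1 and 22.3 CPM in HRC variant hearts, 32.1, 20.9 and 23.5 CPM in MYBPC3 deletion hearts, and 43.9, 24.9 and 33.4 CPM in nontransgenic hearts. Adamts5 had 27.5, 32.4 and 25.8 CPM in compound hearts, 27.6, 27.4 and 25.0 CPM in HRC variant hearts, 36.6, 38.7 and 25.8 CPM in MYBPC3 deletion hearts, and 29.7, 31.1 and 22.4 CPM in nontransgenic hearts. Adamts5 overlapped in all pairs of groups, yet had fitted differences of 0.38 ± 0.15 (SE; adjusted p 0.688) in compound and 0.27 ± 0.12 (SE; adjusted p 0.593) in MYBPC3 deletion hearts, and the females of the MYBPC3 deletion and nontransgenic groups were the lowest of their groups. Without the sex term the compound difference of Adamts5 was 0.042. Adamts1, its neighbour on chromosome 16 across 55044 bases, had -0.50 ± 0.25, -0.48 ± 0.25 and -0.42 ± 0.21 in compound, HRC variant and MYBPC3 deletion against nontransgenic hearts.

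Adamts8 had 0.553, 0.224 and 0.168 CPM in compound hearts, 3.61, 1.88 and 0.0555 CPM in HRC variant hearts, 2.40, 1.65 and 4.15 CPM in MYBPC3 deletion hearts, and 1.55, 4.26 and 2.82 CPM in nontransgenic hearts. The 3 compound hearts and HRC variant replicate 3, which had 1 read, were the 4 lowest hearts, and they are also the 4 with the lowest atrial marker sums and the lowest valve marker sums. The fitted difference of compound hearts, -3.53 ± 1.09 (SE; adjusted p 0.63) from nontransgenic and -3.37 ± 1.04 (SE; adjusted p 0.862) from MYBPC3 deletion hearts, was the largest of any member. With the atrial level as a covariate it was 0.26 and 0.17. Atrial level and compound genotype can hardly be told apart in that fit, since HRC variant replicate 3 was the only other heart with a low atrial level. Adamts15 had 8.13, 6.00 and 4.59 CPM in compound hearts, 14.2, 13.5 and 8.43 CPM in HRC variant hearts, 9.22, 8.94 and 9.14 CPM in MYBPC3 deletion hearts, and 6.61, 14.0 and 11.2 CPM in nontransgenic hearts. Adamts15, another aggrecan-cutting enzyme, lies 17784 bases from Adamts8 on chromosome 9. It was lower in compound than in HRC variant hearts without overlap, by -0.95 ± 0.29 (SE; adjusted p 0.667), and overlapped nontransgenic hearts.

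Of the 7 other ADAMTS enzymes, Adamts19, Adamts12 and Adamts7 were among the members with the smallest p of a comparison. Adamts19 had 0.719, 0.954 and 0.503 CPM in compound hearts, 6.58, 3.03 and 1.05 CPM in HRC variant hearts, 2.02, 1.40 and 4.36 CPM in MYBPC3 deletion hearts, and 1.37, 2.31 and 1.85 CPM in nontransgenic hearts. Compound hearts and HRC variant replicate 3 again held the 4 lowest values, and HRC variant replicate 1 the highest. The compound difference was -2.29 ± 0.60 (SE; adjusted p 0.559) from HRC variant, -2.21 ± 0.67 (SE; adjusted p 0.862) from MYBPC3 deletion and -1.85 ± 0.73 (SE; adjusted p 0.688) from nontransgenic hearts. These were -0.97, -0.52 and -0.07 with the atrial level as a covariate. Adamts19 is known in mouse and human for its part in valve formation, and the part of the valve markers in its difference was not tested. Adamts12 had 1.77, 1.23 and 1.79 CPM in compound hearts, 1.73, 1.57 and 0.777 CPM in HRC variant hearts, 0.316, 0.254 and 1.17 CPM in MYBPC3 deletion hearts, and 1.61, 1.95 and 1.22 CPM in nontransgenic hearts. Here the 2 MYBPC3 deletion males, with 5 and 4 reads, were the lowest of all. The group lay below nontransgenic hearts without overlap, by -1.64 ± 0.60 (SE; adjusted p 0.515). Its female, at 1.17 CPM, was only just below the nontransgenic female at 1.22 CPM, and in females only the difference was -0.046. Adamts7 had 46.9, 43.9 and 45.1 CPM in compound hearts, 33.8, 40.2 and 40.2 CPM in HRC variant hearts, 26.8, 27.4 and 35.3 CPM in MYBPC3 deletion hearts, and 32.5, 29.0 and 40.5 CPM in nontransgenic hearts. Adamts7, which cuts the matrix protein COMP, was higher in compound hearts than in every other heart, by 0.35 ± 0.14 (SE; adjusted p 0.862) from MYBPC3 deletion hearts and 0.25 ± 0.11 from HRC variant hearts, and it overlaps Tbc1d2b (30.5 CPM) on the opposite strand. Adamts13, which cuts von Willebrand factor, ran from 3.88 to 11.9 CPM over the 12 hearts and Adamts10 from 22.2 to 40.3 CPM. Adamts6 ran from 1.40 to 6.14 CPM and Adamts17 from 0.281 to 1.68 CPM. In these 4 genes the pairs of groups overlapped, except HRC variant and MYBPC3 deletion hearts in Adamts6. There the lowest HRC variant heart, at 4.40 CPM, lay above the highest MYBPC3 deletion heart, at 3.88 CPM. Adamts13 had a fitted difference of 1.09 ± 0.33 (SE; adjusted p 0.635) between HRC variant and nontransgenic hearts, or 0.23 without the sex term. Adamts10 differed by -0.42 ± 0.16 (SE; adjusted p 0.75) between compound and HRC variant hearts. The procollagen N-proteinases, which trim collagen precursors, showed no adjusted p under 0.05 in the edgeR fit of all 12 libraries. The highest of them, Adamts2, ran from 24.3 CPM in HRC variant replicate 3 to 68.4 CPM in HRC variant replicate 1.

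Several ADAMTS-like proteins bind fibrillin, a microfibril protein of the matrix, and Adamtsl2 and Adamtsl4 had the lowest p of them. Adamtsl4 had 93.9, 91.6 and 111 CPM in compound hearts, 91.3, 83.7 and 89.7 CPM in HRC variant hearts, 85.0, 82.1 and 112 CPM in MYBPC3 deletion hearts, and 91.6, 108 and 138 CPM in nontransgenic hearts. HRC variant hearts were just below the nontransgenic ones, without overlap, and compound hearts overlapped them. The fitted differences from nontransgenic hearts were -0.47 ± 0.14 (SE; adjusted p 0.63) in compound, -0.64 ± 0.14 (SE; adjusted p 0.475) in HRC variant and -0.27 ± 0.11 (SE; adjusted p 0.579) in MYBPC3 deletion hearts. DESeq2 called the HRC variant difference, at -0.64 with an adjusted p of 0.0128 (0.0128 to 1.00 over the 25 alternatives). Without the sex term it was -0.35, and the compound difference was -0.19; nontransgenic replicate 3, the female, held the highest value at 138 CPM. Adamtsl2 had 19.2, 9.09 and 8.61 CPM in compound hearts, 25.5, 23.0 and 17.3 CPM in HRC variant hearts, 9.03, 15.9 and 25.6 CPM in MYBPC3 deletion hearts, and 16.7, 14.6 and 29.4 CPM in nontransgenic hearts. Compound replicates 2 and 3 were low and replicate 1 was not. The differences of compound hearts were -1.30 ± 0.36 (SE; adjusted p 0.614) from nontransgenic and -1.01 ± 0.35 (SE; adjusted p 0.862) from MYBPC3 deletion hearts, and -0.72 from nontransgenic hearts without the sex term.

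**Figure D3:**
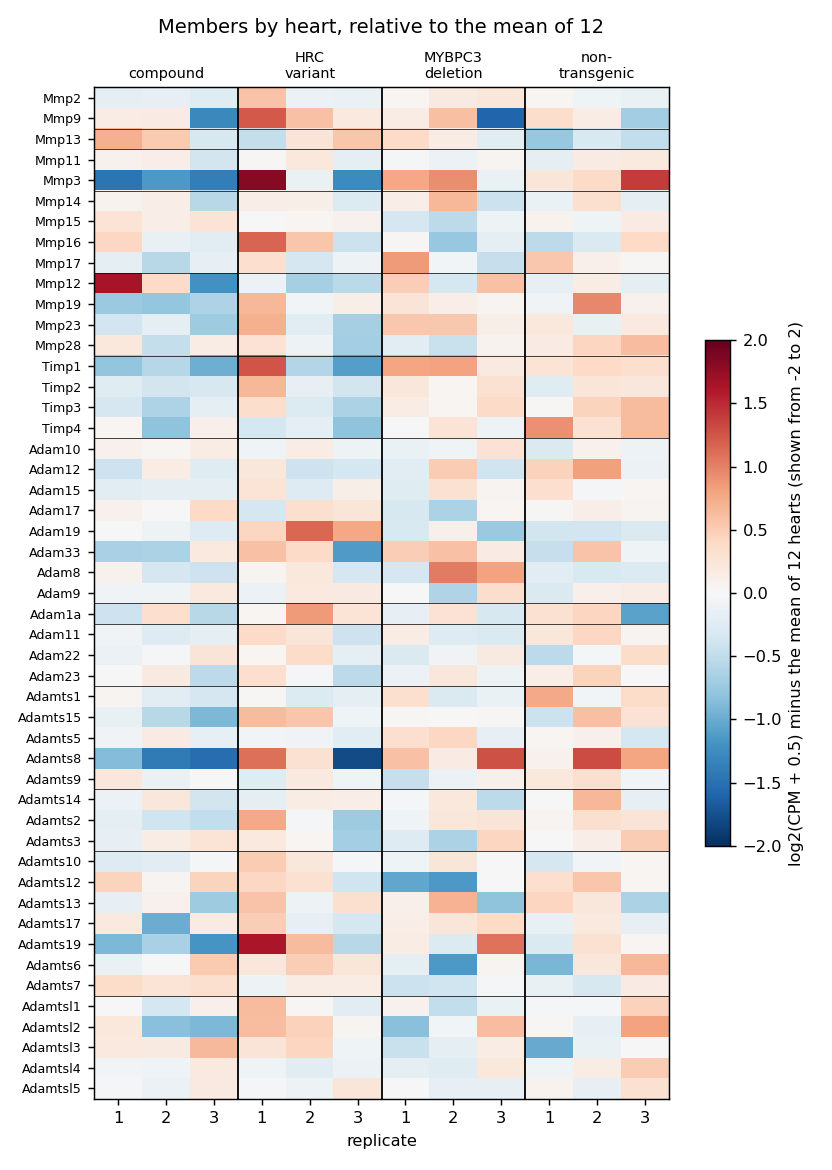
The 49 genes (rows, grouped by role) in the 12 hearts (columns, 3 per genotype), coloured by log2(CPM + 0.5) minus the gene's mean over 12 hearts, shown from -2 to 2. Mmp3, Adamts8 and Adamts19 are low in compound hearts and in HRC variant replicate 3, and HRC variant replicate 1 is high in Mmp3, Timp1 and Adamts19.

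In compound against nontransgenic hearts, 36 of the 49 members had a fitted difference below 0 and 13 (26.5%) above, beside 49.7% of all genes above 0, with a median of -0.21, beside -0.0019 over all tested genes. edgeR called 0 members, as it called 0% of all genes. At an unadjusted p under 0.05 there were 2 higher members (4.08%), beside 2.14% of all genes, and 10 lower members (20.4%), beside 4.22% of all genes. The lower ones were Timp3, Timp4, Mmp3, Mmp19, Mmp28, Adamts8, Adamts15, Adamts19, Adamtsl2 and Adamtsl4, and the higher ones Adamts5 and Mmp13. The CPM of the groups did not overlap for 3 higher members (Adam19, Adamts7, Adamtsl3), beside 8.79% of all genes, and for 14 lower members (28.6%), beside 10% of all genes. limma-voom and DESeq2 called 0 members at an adjusted p under 0.05, beside 0.274% of all genes in DESeq2. The authors' deposited DESeq2 q was under 0.05 for Mmp3 (9.91e-06), Adamts8 (0.000247), Timp3 (0.00233) and Timp1 (0.00703). It was also under 0.05 for Adamts2 (0.0182), Mmp19 (0.0439) and Timp4 (0.0447). The share of all genes under that q was not counted, so these members cannot be set against it. The deposited log2 values were -2.64 for Mmp3 and -0.76 for Timp3. Here the fit without the sex term gave -2.64 and -0.76, and the fit with it -2.74 and -0.98. With the atrial level as a covariate, 2 higher and 0 lower members had an unadjusted p under 0.05, beside 348 and 181 of all genes, and the members' median was 0.16. Of the counts at an unadjusted p, the 10 lower members became 4 without nontransgenic replicate 3 and 6 without MYBPC3 deletion replicate 3. Without compound replicate 2 or 3 there were 7, and without compound replicate 1 there were 11. The count rose to 13 without HRC variant replicate 1 and to 14 without HRC variant replicate 3. The 2 higher ones became 0 without MYBPC3 deletion replicate 3 or compound replicate 2, and 4 without compound replicate 3. They became 1 without nontransgenic replicate 1, MYBPC3 deletion replicate 1 or 2, HRC variant replicate 2 or compound replicate 1. Compound replicates had an atrial marker sum of at most 419 CPM and nontransgenic ones of at least 3418 CPM. Atrial level and compound genotype can therefore hardly be told apart in the fits with that covariate.

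In HRC variant against nontransgenic hearts, 22 members (44.9%) were above 0 and 27 below, beside 50.7% of all genes above 0, with a median of -0.07. edgeR called 0 members and 0% of genes. At an unadjusted p under 0.05 there were 4 higher members (Adam19, Mmp9, Adamts13, Adam1a), beside 3.29% of all genes, and 5 lower ones (Adamtsl4, Timp4, Timp3, Mmp28, Adamts3), beside 2.95% of all genes. Non-overlapping groups were found for 1 higher member, Adam19, beside 4.18% of all genes, and for 2 lower members, Adamtsl4 and Timp4, beside 3.76%. Without the sex term there were 2 higher and 3 lower members, with Adam1a at 0.55 in place of 1.78. DESeq2 called Adam19 and Adamtsl4, 4.08% of members, beside 0.181% of all genes, and limma-voom called 0 members. In the authors' deposited table the DESeq2 q was under 0.05 for Adam19 and Timp4 and not for Adamtsl4, and the share of all genes under it was not counted. The 5 lower members became 9 without HRC variant replicate 1, and 3 without HRC variant replicate 3, MYBPC3 deletion replicate 3 or nontransgenic replicate 3. Adam1a overlaps Mapkapk5 on its own strand (60.0 CPM against 1.15 CPM) and is uncertain.

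In MYBPC3 deletion against nontransgenic hearts, 18 members (36.7%) were above 0 and 31 below, beside 49.2% of all genes above 0, with a median of -0.14. edgeR called 0 members and 0% of genes. At an unadjusted p under 0.05 there were 2 higher members (Adam8, Adamts5), beside 2.94% of all genes, and 5 lower ones (Mmp15, Adamts12, Mmp28, Adamtsl4, Timp4), beside 5.22%. The 2 higher members became 0 or 1 whichever of the 12 libraries was left out, and the 5 lower ones became 2 without MYBPC3 deletion replicate 2. DESeq2 and limma-voom called 0 members, beside 0.549% of all genes in DESeq2. The groups did not overlap for 1 higher member, Mmp13, beside 4.9% of all genes, and for 4 lower members, Mmp15, Adamts12, Mmp28 and Timp4, beside 5.5%.

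**Figure D4:**
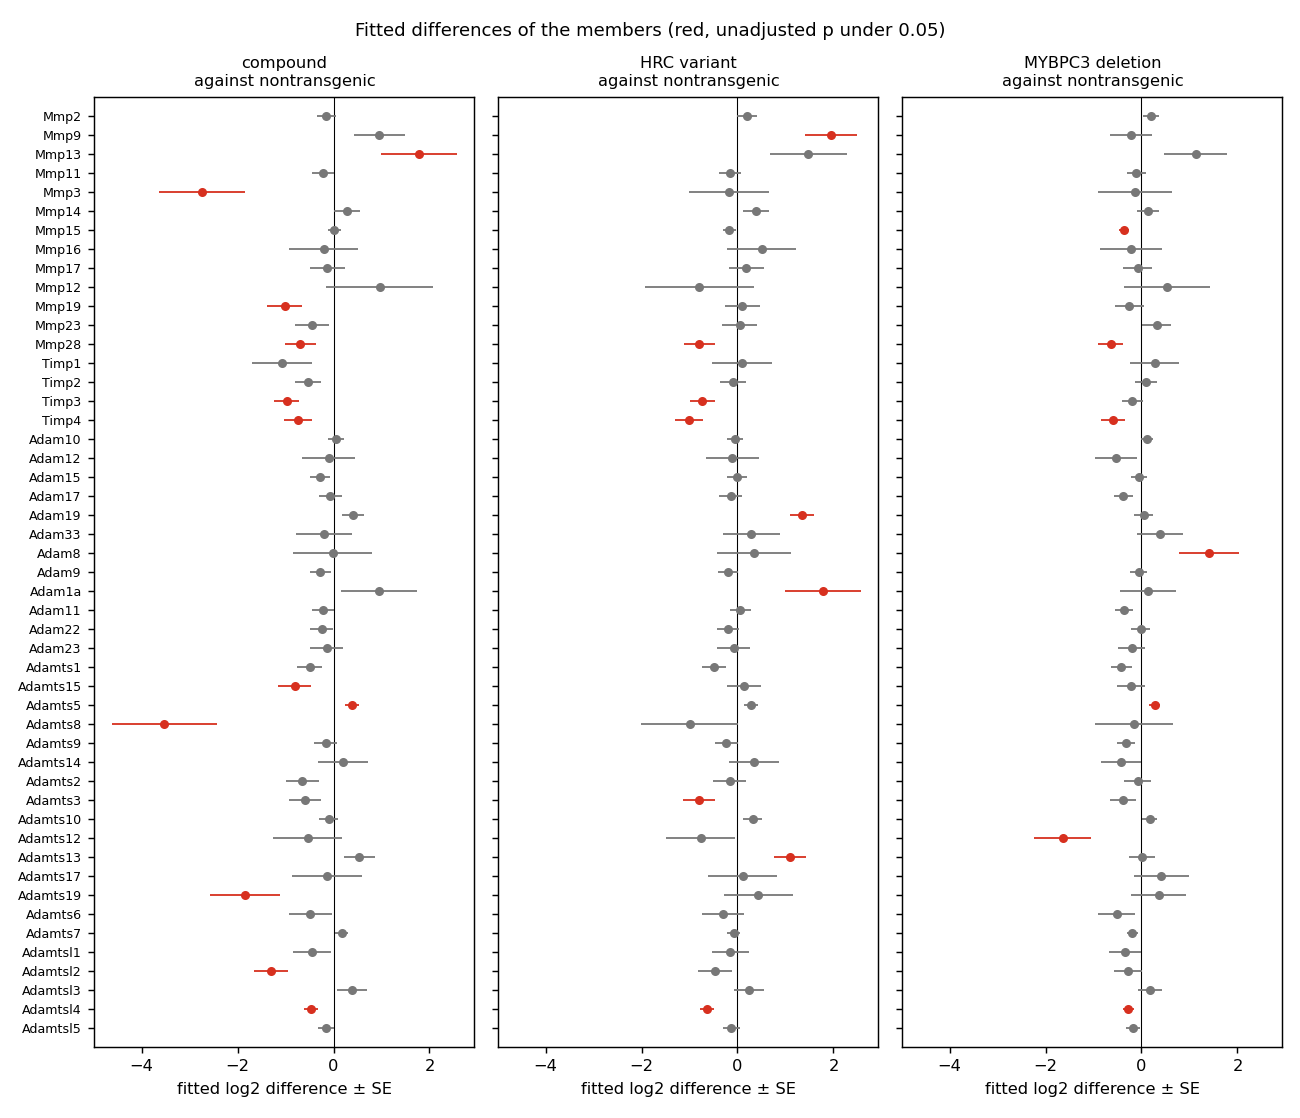
Fitted log2 difference ± SE of each gene in compound, HRC variant and MYBPC3 deletion hearts against nontransgenic hearts (edgeR, 3 hearts a group, same nontransgenic hearts in all panels), in red where the unadjusted p is under 0.05. There are 12, 9 and 7 such genes in the panels from left to right, none with an adjusted p under 0.05.

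The comparisons between altered genotypes share the compound hearts. In compound against MYBPC3 deletion hearts, 21 members (42.9%) were above 0, beside 52.2% of all genes. edgeR, DESeq2 and limma-voom called 0 members, beside 0% of all genes in edgeR and 0.0433% in DESeq2. The authors' deposited DESeq2 q was under 0.05 for Mmp3 (3.45e-05), Adamts8 (0.000291), Timp1 (0.000395), Timp2 (0.00386) and Mmp15 (0.00712). It was also under 0.05 for Adamts7 (0.00722), Mmp23 (0.0136), Timp3 (0.0183), Mmp19 (0.0392) and Adamts19 (0.0476). Again the share of all genes was not counted, so these members cannot be set against it. The deposited log2 value of Mmp3 was -2.43, beside -2.43 here without the sex term and -2.60 with it. At an unadjusted p under 0.05, 2 members were higher (Mmp15, Adamts7), beside 2.34% of all genes, and 6 lower (Adamts19, Adamts8, Timp3, Adamtsl2, Mmp3, Timp2), beside 3.39%. Without MYBPC3 deletion replicate 3 there were 1 higher and 1 lower member, and without HRC variant replicate 1 there were 11 lower ones. The 2 higher members became 1 without compound replicate 1 and 4 without compound replicate 3. The groups did not overlap for 11 lower members (22.4%), beside 13.7% of all genes. The 4 higher members without overlap, Mmp15, Adamts7, Adamts12 and Adamtsl3, stood beside 11.5% of all genes. With the atrial level as a covariate, 4 higher and 0 lower members had an unadjusted p under 0.05, beside 219 and 75 of all genes.

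In compound against HRC variant hearts, 15 members (30.6%) were above 0, beside 47.6% of all genes, and the median was -0.24. edgeR called 0 members and 0% of all genes, DESeq2 called Adam19, beside 0.31% of all genes, and limma-voom called 0. There was 1 higher member (Adamts7) at an unadjusted p under 0.05, beside 2.38% of all genes, and there were 9 lower ones (18.4%), beside 3.91%. The 9 lower ones became 4 without HRC variant replicate 1, 14 without replicate 2 and 16 without replicate 3. The 1 higher one was lost without HRC variant replicate 1, compound replicate 1, MYBPC3 deletion replicate 1 or 3, or nontransgenic replicate 3. The 6 lower members without overlap were Adam19, Mmp2, Mmp9, Mmp19, Adamts15 and Adamts19, beside 6.22% of all genes, while Mmp15, Adamts7 and Adamtsl4 were higher without overlap, beside 6.2%. HRC variant replicates 2 and 3 had lower atrial, valve and fibroblast marker sums than replicate 1. Leaving both out, so that replicate 1 alone stood for the HRC variant group, gave 8 called members in edgeR (16.3%), beside 308 of all 14648 genes tested (2.1%). The 8 were Timp1, Timp2, Mmp2, Mmp3, Mmp23, Adamts2, Adamts8 and Adamts19. With the atrial level as a covariate, 2 higher and 2 lower members had an unadjusted p under 0.05, beside 390 and 278 of all genes, and the members' median was 0.03.

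The interaction was above 0 for 19 members (38.8%), beside 48.4% of all genes. edgeR called 0 members and 0% of all genes, DESeq2 called Mmp15, beside 0.361% of all genes, and limma-voom called 0. At an unadjusted p under 0.05 there were 5 positive members (Mmp15, Adamts7, Adamts12, Adamtsl4, Timp4), beside 4.49% of all genes, and 4 negative ones (Adam19, Mmp2, Adamts10, Adamts19), beside 4.05%. There were 7 positive and 1 negative with the atrial level as a covariate, beside 587 and 328 of all genes. The negative ones became 12 without HRC variant replicate 3, 7 without HRC variant replicate 2, and 2 without HRC variant replicate 1, compound replicate 2 or MYBPC3 deletion replicate 2. The positive ones became 2 without compound replicate 3, and 3 without compound replicate 1, HRC variant replicate 3, MYBPC3 deletion replicate 1 or nontransgenic replicate 1.

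**Figure D5:**
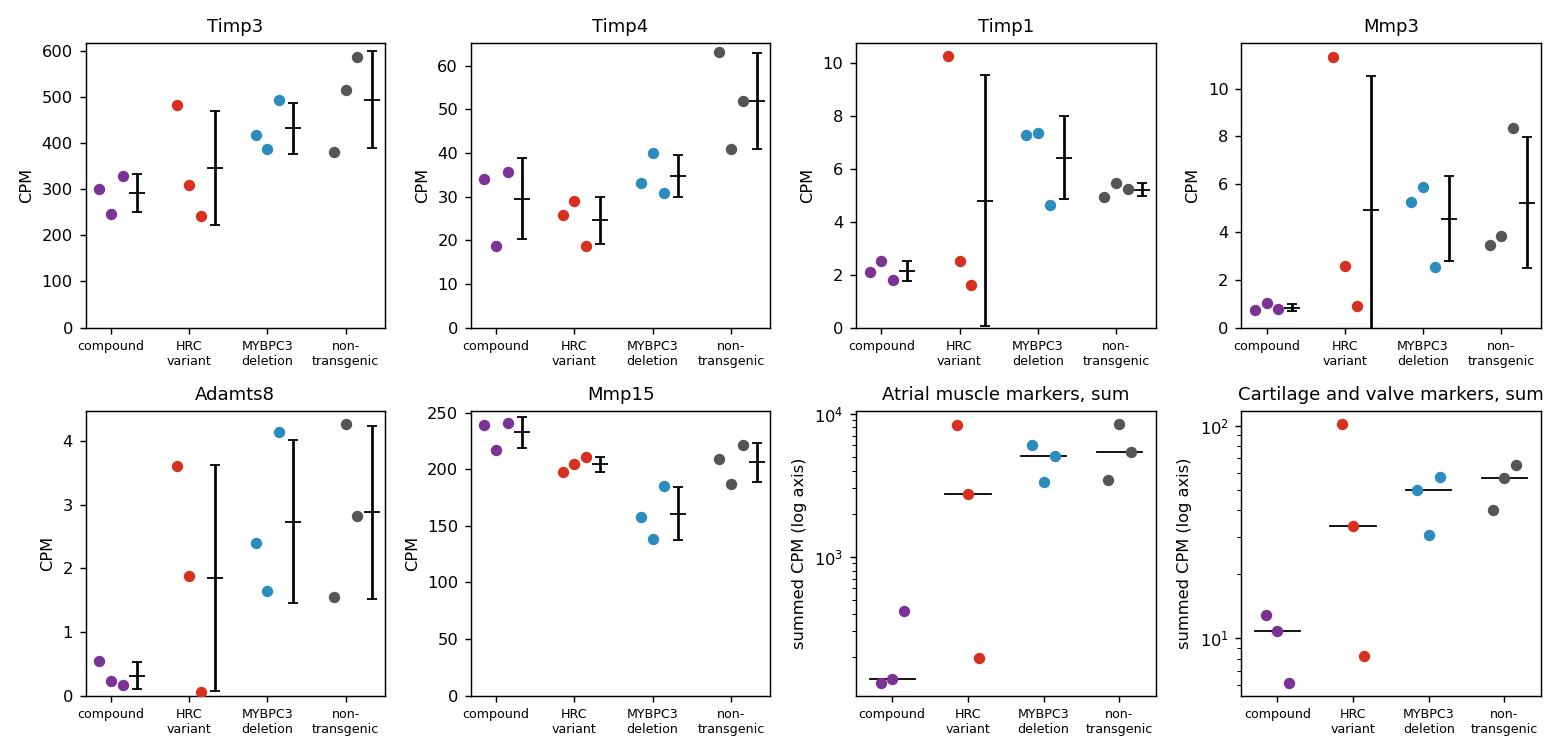
CPM of 6 members in each heart with the mean ± SD of 3 hearts, and the summed CPM of atrial muscle and of cartilage and valve markers (log axis) with the group median as a line. Compound hearts and HRC variant replicate 3 are lowest in Mmp3, Adamts8 and both marker sums, whereas Mmp15 is lowest in MYBPC3 deletion hearts.

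Genes that regulate, activate, anchor or are cut by these proteases were counted beside them. The list held 45 genes, of which 41 were tested, and edgeR called 0 of them in all 6 comparisons. At an unadjusted p under 0.05, 2 were higher and 5 lower in compound against nontransgenic hearts, 2 and 2 in HRC variant against nontransgenic hearts, and 1 and 4 in MYBPC3 deletion against nontransgenic hearts. Over all genes the shares were 2.14% higher and 4.22% lower in compound, 3.29% and 2.95% in HRC variant, and 2.94% and 5.22% in MYBPC3 deletion against nontransgenic hearts. None of the 8 tested partners of ADAM10 and ADAM17 had an unadjusted p under 0.05 in any comparison. Pzp, listed as a regulator, had the smallest p of the list in compound against nontransgenic hearts. It had 1.27, 0.842 and 1.40 CPM in compound and 1.79, 4.83 and 5.36 CPM in nontransgenic hearts. HRC variant hearts had 6.68, 4.13 and 2.16 CPM, and MYBPC3 deletion hearts 2.91, 3.23 and 2.92 CPM. The compound difference of Pzp from nontransgenic hearts was -1.96 ± 0.53 (SE; adjusted p 0.589 in edgeR). Furin had 140.5, 114 and 144 CPM in compound hearts, 134, 138 and 143 CPM in HRC variant hearts, 109, 73.3 and 155 CPM in MYBPC3 deletion hearts, and 115, 138 and 180.4 CPM in nontransgenic hearts. Furin, which cleaves the propeptide of many ADAMs and membrane-type MMPs, had fitted differences of -0.53 ± 0.19, -0.47 ± 0.19 and -0.39 ± 0.16 in compound, HRC variant and MYBPC3 deletion against nontransgenic hearts (adjusted p 0.667, 0.728 and 0.566 in edgeR). Cx3cl1 had 23.2, 24.9 and 15.9 CPM in compound hearts, 23.8, 19.6 and 21.9 CPM in HRC variant hearts, 20.6, 25.8 and 10.9 CPM in MYBPC3 deletion hearts, and 26.8, 16.4 and 14.6 CPM in nontransgenic hearts. This chemokine, shed by ADAM10 and ADAM17, had differences of 0.72 ± 0.26 in compound and 0.75 ± 0.26 in HRC variant hearts. Their adjusted p in edgeR was 0.672 and 0.683. Both groups overlapped nontransgenic hearts, with means of 21.4 and 21.8 CPM beside 19.2 CPM. The single females of the nontransgenic and MYBPC3 deletion groups were the lowest of their groups in Cx3cl1 and the highest in Furin. Furin averaged 133 CPM in compound, 138 CPM in HRC variant and 144 CPM in nontransgenic hearts, and these groups overlapped. Pcolce2, an enhancer of procollagen C-proteinase, had -0.66 ± 0.24 in compound and -0.61 ± 0.24 in HRC variant hearts. Notch1, a substrate of ADAM10, had -0.47 ± 0.15 in MYBPC3 deletion hearts (adjusted p 0.434 in edgeR).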

How the data were processed

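Per the labels' protocols, heart mRNA was enriched with oligo(dT) and sequenced on DNA nanoballs. Per the submitters' processing notes, the tools were Bowtie2, DESeq2 and HISAT and the build GRCm38.p6. No source used here gives their roles, the counting tool, the use of strand or whether the authors' DESeq2 model held sex. The deposited q-values and the adjusted p given here may therefore rest on unlike terms. The authors deposited 1 table of expected counts (94.3% whole numbers), of TPM, and of their own log2 fold changes and DESeq2 q-values; 1 line without values was dropped. Counts were rounded and fitted with edgeR 4.0.16 (R 4.3.3): TMM scaling, a minimum count of 10, group and sex as terms, all 12 libraries, a robust quasi-likelihood test, and Benjamini-Hochberg adjustment over 13849 genes with calls at an adjusted p under 0.05. The biological coefficient of variation was 21.5%, with 7 residual degrees of freedom. DESeq2 1.42.0 and limma 3.58.1 were alternatives. The procedure was tested on simulated data with the same spread for all genes and no sex or tissue differences. That test does not cover the marker differences between these libraries. Members, gene lists and tests were chosen with earlier results of these data known. Named with every value were Adam19, the TIMPs, Mmp2, Mmp3, Mmp9, Mmp14, Adam10, Adam17, Adamts1, Adamts5 and, per comparison, the 4 members with the smallest p. Of the 49 members, 13 overlap a protein-coding gene in GENCODE M21, and reads shared with one are uncertain.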

Additional observations from a re-analysis of the deposited data

How the results depend on the processing

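Results were recomputed under up to 25 other settings; the fit of only the groups compared has no counterpart for the interaction, and stricter filters dropped some genes. Of the 52 named log2 differences other than those of Adam19, 1272 recomputed values kept their direction and side of the threshold, 10 passed it and 5 turned sign. The 5 were, with the atrial level as a covariate, Adamts8 in compound against nontransgenic (0.26), MYBPC3 deletion (0.17) and HRC variant hearts (0.52), Mmp28 in compound against nontransgenic hearts (0.13) and Timp2 in compound against MYBPC3 deletion hearts (0.019). With 0 members called in the main fit, most values could hardly change side, and the counts ignore size. Adamts19 in compound against nontransgenic hearts counts as kept, though it went from -1.85 to -0.07 with the atrial level as a covariate. Adam19 in MYBPC3 deletion against nontransgenic hearts, at 0.04, was -0.45 in females only, -0.19 with both nontransgenic replicate 1 and MYBPC3 deletion replicate 2 left out, and -0.16 to 0.30 when single libraries were left out. In compound against nontransgenic hearts it ran from 0.18 to 0.95 when single libraries were left out. In compound against MYBPC3 deletion hearts it ran from -0.13, without MYBPC3 deletion replicate 3, to 0.65. In HRC variant against nontransgenic hearts it ran from 1.12 to 1.89 when single libraries were left out (adjusted p 0.0430 to 1.00 in edgeR), and 1.35 in DESeq2 passed the threshold. In compound against HRC variant hearts it was -0.94 in DESeq2 and -1.11 to -0.73 without single libraries. The cause of these shifts was not tested.

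Members called numbered 0 except as follows. In HRC variant against nontransgenic hearts DESeq2 called 2, and leaving out single libraries gave 0 to 1, the 1 being Adam19 without HRC variant replicate 1, beside 8 of all genes. In compound against nontransgenic hearts 1 (Mmp3, beside 15 of all genes) was called with only the groups compared and 1 (Mmp3, -2.74, adjusted p 0.0477 in edgeR, beside 37) without HRC variant replicates 2 and 3. In compound against MYBPC3 deletion hearts 1 (Adamts8, -3.69, beside 57 of all genes) was called with only the groups compared. In compound against HRC variant hearts DESeq2 called 1 and leaving out HRC variant replicates 2 and 3 gave 8, beside 308 of all genes (Adamts19, Adamts2, Adamts8, Mmp2, Mmp23, Mmp3, Timp1, Timp2), which rest on HRC variant replicate 1 alone, assumed to vary like the other groups. For the interaction DESeq2 called 1 and the same omission gave 4, beside 189 of all genes (Adamts19, Mmp2, Mmp3, Timp1). Over all genes DESeq2 called 76, 25, 38, 6, 43 and 50, against 0 in edgeR, for MYBPC3 deletion, HRC variant and compound against nontransgenic hearts, compound against MYBPC3 deletion and HRC variant hearts, and the interaction.

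Of 18 same-numbered pairs of libraries, 5 deviated together with a correlation over 0.1 (range -0.24 to 0.32). Unlike-numbered pairs ran from -0.36 to 0.33. No pairing by replicate number was clear, but with 3 libraries a group such a check cannot exclude one. With the replicate number as a block, edgeR called 0 members in all 6 comparisons, and Adam19 in HRC variant against nontransgenic hearts was 1.25 (adjusted p 0.858). Depth limits Adamts8, Mmp3, Mmp13 and the other members near or under 1 CPM most. Sex and genotype overlap in part, since no HRC variant or compound male was sequenced.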

Other observations

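Among the 16 genes under the minimum, Adamts4, an aggrecan-cutting protease, had 6, 9 and 4 reads in compound hearts, 8, 14 and 24 reads in HRC variant hearts, 3, 2 and 2 reads in MYBPC3 deletion hearts, and 4, 0 and 1 reads in nontransgenic hearts. It was chosen after its values were seen, as the gene with the most reads in a single library of that set. Adamts20 of the same group had 7, 11 and 6 reads in compound hearts, 4, 2 and 6 in HRC variant hearts, 3, 15 and 8 in MYBPC3 deletion hearts, and 4, 2 and 11 in nontransgenic hearts, and the groups overlapped.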
